A study of Mus musculus with 26 samples.

Results

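The genes described here are 47 genes of the cell division cycle, chosen by symbol, and their messenger RNA was measured in mouse spleen. All 47 were found among the 56392 genes of the deposited table. They were read as 20 genes of DNA synthesis (S phase), 26 genes of mitosis, and Stmn1, which encodes the microtubule-destabilising protein stathmin and was put in neither class. The series holds 26 RNA-sequencing libraries of poly(A)-selected spleen RNA from female BALB/c mice aged 8 weeks. Saline was given into the peritoneum in the group coded CT (5 libraries). Ovalbumin (OVA), an antigen from egg white, was given at 0.05 mg per day by the same route on days 1, 3 and 5 in the groups coded OS (6 libraries) and ON (5 libraries). The groups coded MM and MN (5 libraries each) received this OVA course and, in addition, miR-676-3p mimic (a synthetic copy of that microRNA) at 7 mg per kg into the tail vein on day 3. No transgene or deletion is named for any group. The labels do not say what sets OS apart from ON or MM from MN, and the codes were kept as given. The labels give 20 mice per group without tying libraries to mice. The p-values below therefore measure only the spread between these libraries, which may be technical.

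Cells that divide copy their DNA in S phase and separate the copies in mitosis. At the start of S phase the transcription factor E2F switches on cyclin E, the proteins that load and fire replication origins, and the enzymes that supply nucleotides. Later the MuvB complex, with MYBL2 and FOXM1, switches on a second wave of genes for cyclins A and B, the spindle, the centromere and the anaphase-promoting complex. In resting cells the DREAM complex holds both waves silent, so the messages of these genes serve as markers of dividing cells. The adult mouse spleen holds several dividing populations: B cells of germinal centres, activated T cells, granulocyte precursors and, in the red pulp, erythroblasts, since the mouse spleen makes red cells throughout life.

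Values are FPKM, fragments scaled to the gene length in the deposited table and by a factor per library. Between 14224832 and 18113989 reads per library lay behind them. The factor did not follow these reads alone: 1 read on 1 kilobase stood for 0.0747 FPKM in CT 4 (16698715 reads) and 0.0569 in CT 3 (16686181 reads). In ON 2 (15629615 reads) the value was 0.0899. The same share of reads thus gave a higher FPKM in CT 4 than in CT 3, and the part of this in the levels was not tested. Each member had from 101 to 92966 reads in a library, the lowest being Gins2. In bulk RNA, fewer dividing cells and less of these messages per cell cannot be told apart. B-cell, T-cell and red pulp macrophage markers were present in every library, and no marker of these lists was at 0 throughout. Pancreas markers took 28.8% of reads in ON 2, 14.4% in MM 2, 4.35% in ON 3 and at most 0.00348% elsewhere. Saline library CT 4 stood apart, with 6.62% of its reads on mitochondrially encoded genes, against 1.44% to 1.81% in the other saline libraries. Comparisons with CT are therefore also given without it, where it changes a call or a sign or moves a value by over 1.5 times.

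The members formed a broad range of levels. Each level rests on the gene length in the deposited table, such as 1531 bases for Ccnb2, 4097 for Gins2 and 6089 for Tyms. How far that length matches the messenger of a gene was not checked, so the order of genes by level, here and below, is tied to it. Mki67, the gene of the proliferation antigen Ki-67, was the highest at a median of 145 FPKM over the 26 libraries, and Gins2, a subunit of the GINS complex of the replicative helicase, was the lowest at 3.18. The median member lay at 22.3 FPKM, with 28.8 for the S-phase class and 20.9 for the mitotic class. Next after Mki67 came Pcna, the sliding clamp of DNA polymerase, at 141 FPKM, and Rrm2, the small subunit of ribonucleotide reductase, at 84.1. Ube2c, the ubiquitin-conjugating enzyme of the anaphase-promoting complex, followed at 70.2 FPKM. Ccnb2, cyclin B2, lay at 69.5 FPKM, and Stmn1 at 55.5. The spread between libraries was wider than the gaps between these last 3: Ube2c ran from 41.5 to 125 FPKM, Ccnb2 from 38.7 to 122 and Stmn1 from 25.9 to 94.5.

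Among the S-phase members, the 6 subunits of the MCM2-7 helicase lay close together, from 29.6 FPKM (Mcm2) to 51.2 (Mcm7) in the median. The factors that load this helicase at origins were lower for Cdc6, at 15.7 FPKM, and near the helicase for Cdt1, at 32.2. Cdc45, which joins the helicase when it fires, was at 8.68 FPKM. Of the enzymes of nucleotide supply, Rrm1 was at 22.3 FPKM, thymidine kinase Tk1 at 21.1 and thymidylate synthase Tyms at 9.15. Of the cyclins E, Ccne1 lay at 27.9 FPKM and Ccne2 at 14.4, and E2f1 lay at 12.7. Uhrf1, which carries DNA methylation through replication, was at 40.5 FPKM, while Esco2, the S-phase acetyltransferase of cohesin, was at 7.75.

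Among the mitotic members, cyclin A2 (Ccna2) was at 50.9 FPKM, cyclin B1 (Ccnb1) at 21.4 and their kinase Cdk1 at 18.4. Topoisomerase Top2a, which untangles sister DNA, was at 47.3 FPKM, and Cdc20, the activator of the anaphase-promoting complex, at 40.5. The mitotic kinases lay near each other, with Plk1 at 24.1 FPKM, Aurka at 21.2 and Aurkb at 20.7, and Birc5 (survivin), a partner of Aurkb, was at 36.5. The spindle checkpoint genes Bub1b and Bub1 were at 18.6 and 9.76 FPKM. At the centromere, the histone variant gene Cenpa (24.2 FPKM) was above Cenpe (11.7) and Cenpf (8.70). The spindle and cytokinesis genes ran from Nusap1 at 32.7 FPKM through Tpx2 at 24.7, Kif11 at 19.6, Hmmr at 14.5, Prc1 at 11.9, Kif23 at 9.87 and Kif20a at 9.47 to Anln at 8.24. Foxm1, the transcription factor of the mitotic wave, was at 9.45 FPKM.

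**Figure D1:**
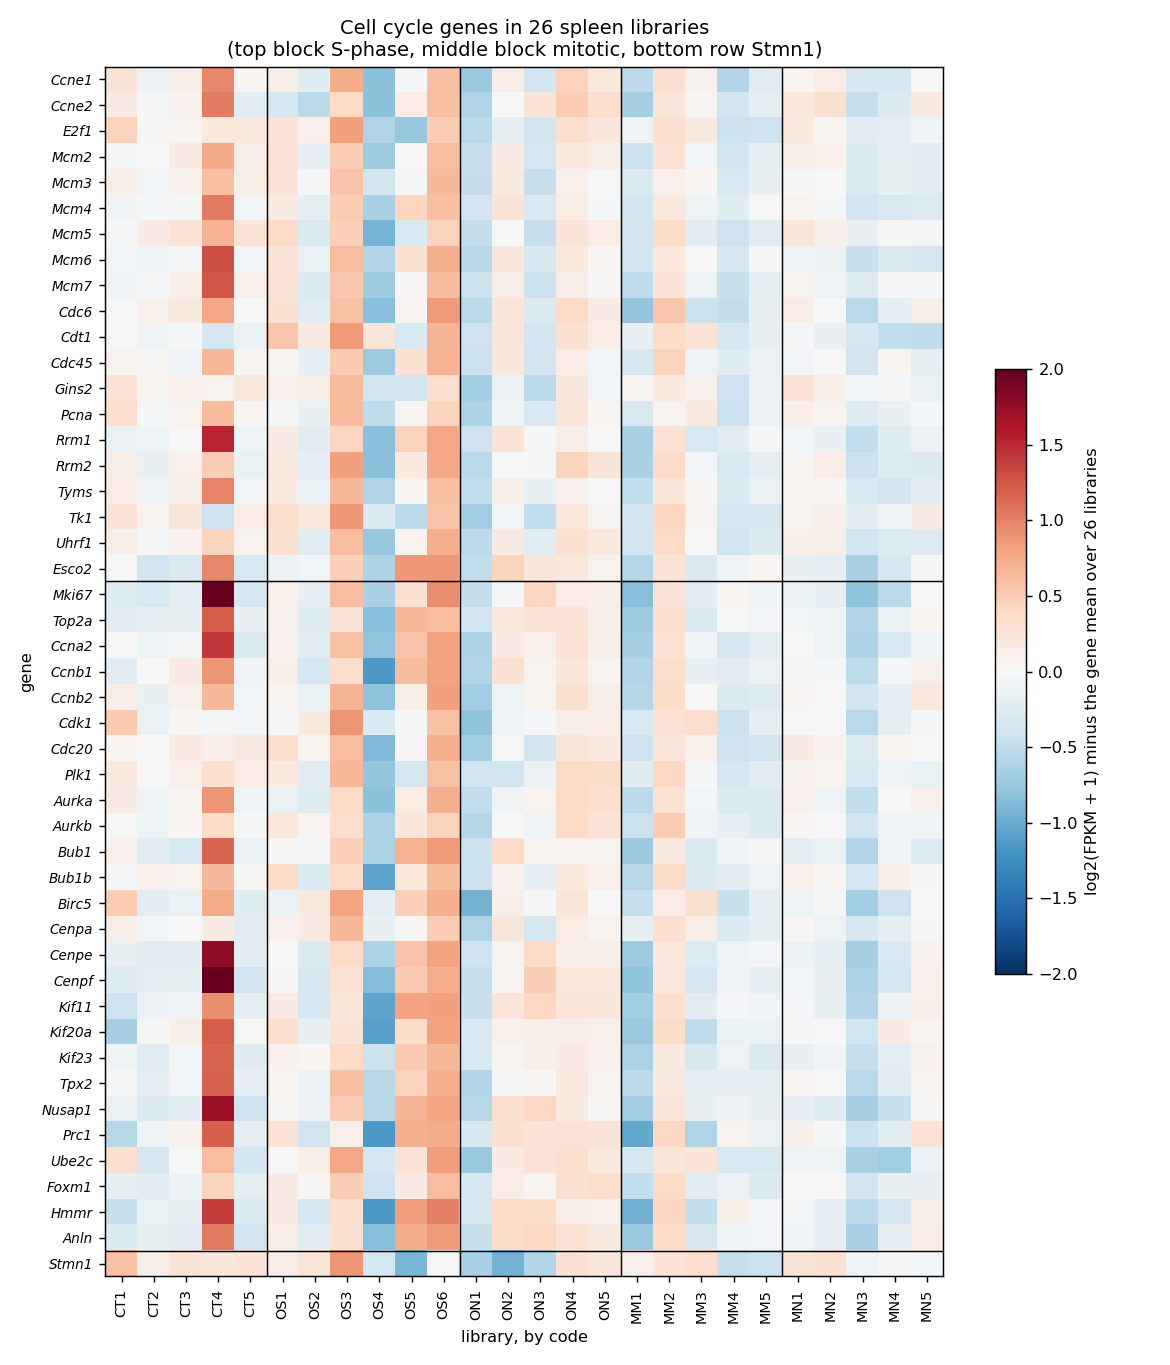
Rows are the 47 genes (S-phase class, mitotic class, then Stmn1), columns the 26 libraries by code, and colour is log2(FPKM + 1) minus the mean of the gene over all libraries, with the scale ending at -2 and 2. Whole columns share a colour: CT4, OS3 and OS6 are high and OS4, ON1, MM1 and MN3 are low for most genes, while Stmn1 follows the columns less closely.

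The members were high or low together, library by library. As a summary, log2(FPKM + 1) of each gene was taken minus its mean over the 26 libraries and averaged over the members. This mean deviation was 0.84 in CT 4, 0.68 in OS 6 and 0.54 in OS 3, and at the other end -0.43 in MN 3, -0.51 in MM 1, -0.52 in ON 1 and -0.67 in OS 4. Code OS thus held libraries at both ends, and the map of all members by library shows the same columns. The highest library was CT 4 for 27 members, OS 3 for 11, OS 6 for 8 and another for 1. The lowest was OS 4 for 28 members, ON 1 for 9 and others for 10. From the lowest to the highest library a member differed by a median of 3.46-fold, or 3.08-fold without CT 4.

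Across libraries, most pairs of members rose and fell together, though some did so weakly or not at all. The median Pearson r was 0.81 over 190 pairs of S-phase genes, 0.83 over 325 pairs of mitotic genes and 0.77 over 520 pairs of an S-phase with a mitotic gene (n = 26 libraries). With each library taken minus the mean of its code these medians were 0.85, 0.84 and 0.79, so the parallel lay within codes. Over the 26 libraries as they are, the lowest r was 0.19 within the S-phase class and 0.27 within the mitotic class. It was 0.03 between the classes and -0.11 over all 1081 pairs of members. All pairs share the same libraries and their scaling, so these are descriptions and carry no p. The class means followed each other with r = 0.91 (Spearman's rho 0.86), and r = 0.89 without CT 4. The members least like the rest were Stmn1 (r = 0.31 with the mean of the others), Cdt1 (0.42), Tk1 (0.49), Gins2 (0.54), E2f1 (0.61) and Cdk1 (0.68). Without CT 4 the value for Tk1 was 0.72, that for Cdt1 0.60 and that for Cdk1 0.80.

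Since the members moved together, the sequence before their start sites is shown for 6 of them. These are 4 mitotic genes and 2 S-phase genes, picked with their motif matches known, as examples of how 3 boxes known from cell cycle promoters lie. Each is the 150 bases before the start of the RefSeq entry, build GRCm38.p6, written 5′ to 3′ on the strand of the gene. Capitals mark a CCAAT box (CCAAT or, on the other strand, ATTGG), a cell cycle genes homology region or CHR (TTTGAA or TTTAAA, or TTCAAA on the other strand), or an E2F site (TTTCCCGC, TTTCGCGC, TTTGCCGC or TTTGGCGC, or the same read on the other strand). In Mcm6 an E2F match on one strand overlaps one on the other. The windows are chr4:118437344-118437493 (minus strand) for Cdc20, chr9:70421555-70421704 (minus strand) for Ccnb2, chr7:122159285-122159434 (plus strand) for Plk1, chr10:69352913-69353062 (minus strand) for Cdk1, chr1:128359706-128359855 (minus strand) for Mcm6 and chr11:98908001-98908150 (plus strand) for Cdc6.
Cdc20: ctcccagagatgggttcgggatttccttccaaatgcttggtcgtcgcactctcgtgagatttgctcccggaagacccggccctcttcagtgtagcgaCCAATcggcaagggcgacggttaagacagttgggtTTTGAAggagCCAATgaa
Ccnb2: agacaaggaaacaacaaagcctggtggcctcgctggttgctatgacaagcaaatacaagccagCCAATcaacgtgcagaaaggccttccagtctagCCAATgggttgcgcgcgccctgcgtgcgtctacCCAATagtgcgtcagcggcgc
Plk1: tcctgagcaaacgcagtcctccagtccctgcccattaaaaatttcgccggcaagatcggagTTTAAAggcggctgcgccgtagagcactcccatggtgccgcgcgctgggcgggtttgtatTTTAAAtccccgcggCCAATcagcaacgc
Cdk1: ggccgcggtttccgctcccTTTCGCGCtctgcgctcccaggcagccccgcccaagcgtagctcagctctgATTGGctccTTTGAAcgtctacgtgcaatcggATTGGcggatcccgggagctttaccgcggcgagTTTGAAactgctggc
Mcm6: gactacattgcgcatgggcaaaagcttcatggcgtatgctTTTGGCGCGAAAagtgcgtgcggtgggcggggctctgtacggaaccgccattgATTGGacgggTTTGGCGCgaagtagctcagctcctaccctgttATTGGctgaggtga
Cdc6: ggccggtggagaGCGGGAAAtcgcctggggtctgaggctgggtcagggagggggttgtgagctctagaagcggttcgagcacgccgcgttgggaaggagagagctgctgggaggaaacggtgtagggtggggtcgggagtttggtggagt

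Of the 47 members, 37 had a promoter entry from RefSeq (250 bases before to 50 after the start), and both strands were searched. A CCAAT box was in 18 of 21 mitotic genes (85.7%) and 10 of 16 S-phase genes (62.5%), against 41.1% of the 27025 genes with an entry. A CHR was in 19 of 21 mitotic genes (90.5%) and 7 of 16 S-phase genes (43.8%), against 30.6% of all. An E2F site of these letters was in 1 of 21 mitotic genes (Cdk1, 4.76%) and in 7 of 16 S-phase genes (43.8%), against 2.61% of all. The S-phase genes were Cdc6, Cdt1, Mcm3, Mcm5, Mcm6, Mcm7 and Uhrf1, so 4 of them encode subunits of the helicase. The mitotic genes with no CHR of these letters were Bub1 and Nusap1, and those with no CCAAT were Anln, Birc5 and Nusap1. For S-phase genes the CHR share moved with the search: it was 12.5% with TTTGAA alone (20.2% of all genes) and 18.8% in the last 150 bases before the start (16.8% of all genes). For mitotic genes the same shares were 76.2% and 47.6%. A match is a run of letters and not a measured binding site.

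No member differed between treatments past the threshold (adjusted p under 0.05, limma on log2(FPKM + 1), Benjamini-Hochberg over 15672 genes). In OVA minus saline 0 of 47 passed, beside 2.17% of all genes tested. In OVA with mimic minus OVA, and in OVA with mimic minus saline, 0 of 47 members passed, and the share of all genes was 0 in both. At an unadjusted p under 0.05 the members numbered 0 (16.3% of all genes), 3 (10.1%) and 0 (6.72%) in the same order. Voom on reads recovered from the FPKM values called 0 members in each, beside 1.25%, 0 and 0 of all genes. At an unadjusted p under 0.05 voom had 0 members (12.7% of all genes), 2 (8.31%) and 0 (5.45%). Members vary together, so the counts of members on either side of 0 below are not counts of independent genes.

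Under OVA, the S-phase genes lay slightly below saline and the mitotic genes near it. The median log2 difference was -0.17 for the S-phase class (3 of 20 above 0) and -0.03 for the mitotic class (11 of 26 above 0), and 0.01 over all genes. Without CT 4 these medians were -0.01 (8 of 20 above 0) and 0.23 (22 of 26 above 0). Over all members the median was -0.10 with 14 of 47 above 0, and 0.08 with 30 of 47 above 0 without CT 4, so this library decides the sign. Still 0 of 47 members passed without it, beside 2.35% of all genes.

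Mki67 shows how far CT 4 carries the saline mean. Its FPKM was 132, 126, 137, 690 and 123 in CT 1 to 5, and ran from 98.7 to 299 with a median of 171 over the 11 OVA libraries. The saline mean was 242 ± 251 (SD, n = 5), and 130 ± 6.22 without CT 4 (n = 4). The OVA libraries therefore lay mostly above 4 of the saline libraries and all below the other. In the 10 libraries with the mimic Mki67 ran from 85.5 to 187 FPKM with a median of 141, which covers the other 4 saline libraries.

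Cdt1, the licensing factor that brings the MCM helicase to origins, had the smallest p of any member in OVA minus saline apart from Stmn1. It is ENSMUSG00000006585, on chromosome 8 from 123294754 to 123300293 (+ strand) in the deposited table, whose build no label or header names. Its FPKM was 33.7, 31.5, 33.3, 26.8 and 30.9 in CT 1 to 5. Over OS it ran from 27.3 to 61.8 with a median of 45.5, and in ON 1 to 5 it was 25.3, 40.5, 25.9, 42.2 and 37.7. All OS libraries but OS 5 lay above every saline library, while ON lay on both sides. The OVA minus saline difference was 0.29 ± 0.16 (log2, SE; 95% interval -0.04 to 0.62; limma adjusted p = 0.376). Cdt1 was also lower in CT 4 than in each of the other saline libraries.

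Of the other members with the smallest p in OVA minus saline, Foxm1 lay above saline and Mcm5, Pcna, Plk1 and Bub1b below. Mcm5, an MCM helicase subunit, was at 46.3, 53.8, 57.6, 78.2 and 58.1 FPKM under saline, and from 24.7 to 67.1 with a median of 48.1 under OVA. The difference was -0.34 ± 0.19 (95% interval -0.74 to 0.05; limma adjusted p = 0.394), and the groups overlapped. Pcna differed by -0.24 ± 0.16 (limma adjusted p = 0.496), and Mcm5 and Pcna by -0.24 and -0.14 without CT 4. Of the mitotic class, Foxm1 differed by 0.18 ± 0.15 (limma adjusted p = 0.613), Plk1 by -0.16 ± 0.19 (limma adjusted p = 0.739) and Bub1b by -0.16 ± 0.20 (limma adjusted p = 0.762). Without CT 4 these values were 0.31 for Foxm1, -0.12 for Plk1 and -0.04 for Bub1b. With libraries weighted by how well they match their code, which gave CT 4 a weight of 0.10, Foxm1 passed, at 0.36 (limma adjusted p = 0.0476).

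Stmn1 stood outside the classes. Its FPKM was 76.5, 55.0, 61.1, 59.6 and 62.0 in CT 1 to 5. Over OS it ran from 26.6 to 94.5 with a median of 53.5, and in ON 1 to 5 it was 32.2, 25.9, 33.6, 63.3 and 59.5. Low values were those of OS 4, OS 5, ON 1, ON 2 and ON 3, while OS 3 was above every saline library. CT 4 lay within the other saline libraries for this gene. The difference was -0.46 ± 0.22 in OVA minus saline (95% interval -0.91 to 0.00; limma adjusted p = 0.311), the smallest p of any member there. In ON minus CT it was -0.62 ± 0.26 (limma adjusted p = 0.281).

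With the mimic added to OVA, the members lay lower than with OVA alone, though none passed. The median log2 difference was -0.19 (3 of 47 above 0: Gins2, Stmn1 and Mcm5, which was at 0.00), with -0.14 in the S-phase class and -0.27 in the mitotic class, where all 26 lay below 0, and 0.00 over all genes. CT takes no part in this comparison. Markers of granulocyte precursors lay lower as well (median -0.85, 0 of 10 above 0, 6 at an unadjusted p under 0.05 and 0 past the threshold in limma). The codes differed in this list, with a median of -0.77 in MM minus CT, 0.14 in MN minus CT and -0.98 in MM minus MN. Markers of megakaryocytes (median -0.42, 0 of 8 above 0, 5 at an unadjusted p under 0.05 and 0 past the threshold) and of the erythroid line (median -0.23, 5 of 22 above 0) were lower too. T-cell markers lay higher (median 0.26, 7 of 8 above 0, 2 at an unadjusted p under 0.05 and 0 past the threshold). B-cell markers (median 0.09, 7 of 8 above 0) and ribosomal protein genes (median 0.24, 82 of 90 above 0) did as well. Of all genes, 10.1% were at an unadjusted p under 0.05 in limma. The part of these lists in the values of the members was not tested. The 3 members at an unadjusted p under 0.05 were Cdt1, Ube2c and Foxm1. Cdt1 was at 30.6, 44.6, 41.1, 26.8 and 30.6 FPKM in MM 1 to 5 and 33.0, 30.5, 26.8, 23.9 and 23.6 in MN 1 to 5, with a median of 40.5 over the 11 OVA libraries. The difference was -0.32 ± 0.13 (95% interval -0.59 to -0.05; limma adjusted p = 0.406), and the groups overlapped.

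Ube2c, which hands ubiquitin to cyclin B and securin for their destruction, was at 55.8, 81.8, 83.4, 56.6 and 56.3 FPKM in MM 1 to 5. In MN 1 to 5 it was at 64.8, 65.0, 44.0, 42.7 and 64.5, and under OVA it ran from 41.5 to 125 with a median of 80.0. Most libraries with the mimic lay below that median, but ON 1 was below all of them. The difference was -0.37 ± 0.17 (95% interval -0.72 to -0.03; limma adjusted p = 0.453). Foxm1 ran from 6.75 to 13.4 FPKM with a median of 8.78 with the mimic and from 7.17 to 15.7 with a median of 11.1 under OVA, a difference of -0.28 ± 0.12 (95% interval -0.53 to -0.02; limma adjusted p = 0.457). Kif23, a kinesin of the midbody, differed by -0.31 ± 0.16 (limma adjusted p = 0.498), Esco2 by -0.36 ± 0.18 (limma adjusted p = 0.505) and Rrm2 by -0.25 ± 0.17 (limma adjusted p = 0.622). The lack of a call does not show equal levels: the interval of Esco2, for example, ran from -0.74 to 0.02.

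Against saline, the libraries with the mimic lay lower for all 47 members, with a median of -0.28. Without CT 4 the median was -0.11 and 10 of 47 lay above 0, with 9 of 26 mitotic and 1 of 20 S-phase genes. The smallest p-values were those of Mcm3 (-0.30 ± 0.15), Tyms (-0.36 ± 0.18) and Mcm7 (-0.41 ± 0.21), each with a limma adjusted p = 0.732. Those of the mitotic class were Ccna2 (-0.41 ± 0.25, limma adjusted p = 0.733), Kif23 (-0.31 ± 0.19) and Cenpf (-0.51 ± 0.33, both limma adjusted p = 0.734). All 6 lay nearer to 0 without CT 4, at -0.20 for Mcm3, -0.17 for Tyms, -0.16 for Mcm7, -0.10 for Ccna2 and -0.04 for Kif23. For Cenpf, a large protein of the kinetochore, the sign turned, at 0.02. No gene of any kind passed in this comparison with or without CT 4 (0 of all genes in each).

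**Figure D2:**
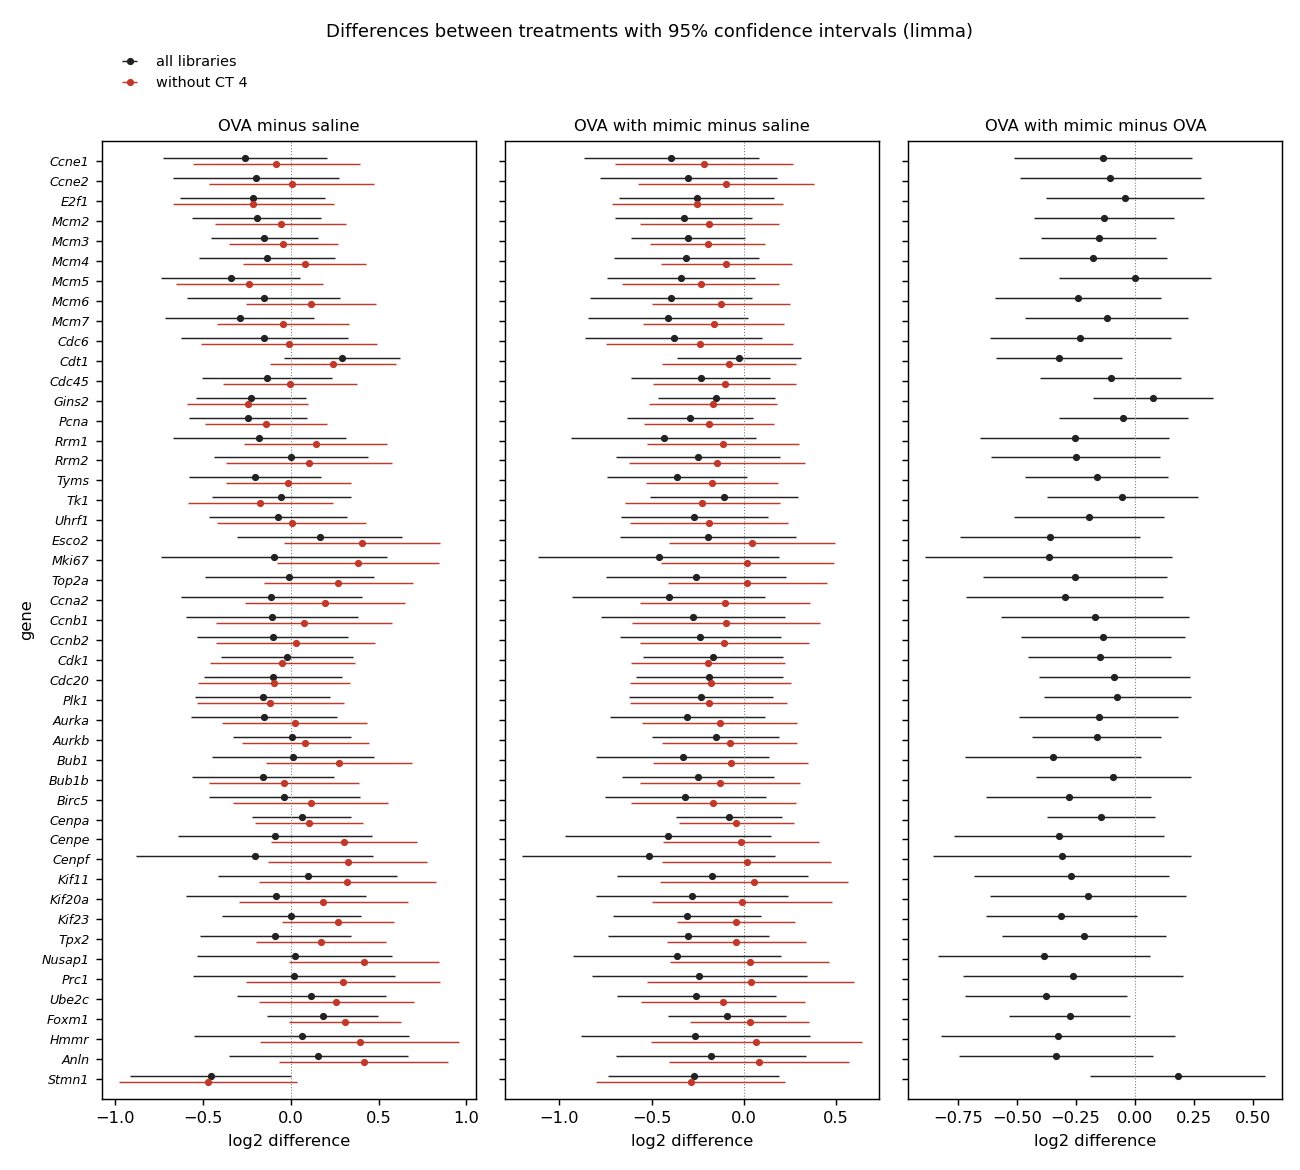
For each member the point is the log2 difference and the bar its 95% confidence interval from limma, in black with all libraries and in red without CT 4 (the comparison of OVA with mimic minus OVA uses no CT library). Red points lie to the right of black ones for most genes, and every interval includes 0 except those of Cdt1, Ube2c and Foxm1 in OVA with mimic minus OVA.

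The codes were also compared one by one. OS minus CT had 0 of 47 members past the threshold (2.99% of all genes), ON minus CT 0 (0.510%), MM minus CT 0 (0.300%) and MN minus CT 0 (0 of all genes). At an unadjusted p under 0.05 the members were 1 (16.3% of all genes), 2 (13.6%), 0 (9.78%) and 0 (2.88%), namely Cdt1, higher in OS, and Stmn1 and Gins2, lower in ON. These 4 comparisons share the CT libraries. Their member medians were -0.02, -0.19, -0.30 and -0.26, and 0.17, 0.03, -0.11 and -0.11 without CT 4. Without it, 3 members were at an unadjusted p under 0.05 in OS minus CT (19.6% of all genes), namely Cdt1, Nusap1 and Kif23, all higher in OS. In MN minus CT, leaving out CT 4 took the count of all genes at that p from 451 to 152 of 15672, with 0 members in both. Cdt1 came nearest to a call in OS minus CT, at 0.48 (95% interval 0.11 to 0.86; limma adjusted p = 0.157). It passed without OS 5 (limma adjusted p = 0.0335) and with library weights (limma adjusted p = 0.0396).

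Between the codes of one treatment, OS lay above ON and MM near MN. In OS minus ON the median was 0.15 with 41 of 47 members above 0, while 0 passed (0.185% of all genes) and 1, Cdt1, was at an unadjusted p under 0.05 (10.6% of all genes). Single libraries set this size, since the median was 0.02 without ON 1 and 0.32 without OS 4. Birc5 was at 19.0, 40.6, 36.2, 44.2 and 37.1 FPKM in ON 1 to 5 and ran from 32.8 to 65.6 with a median of 47.7 in OS, with overlap. Its difference was 0.44 ± 0.23 (limma adjusted p = 0.516), beside 0.38 ± 0.18 for Cdt1 (limma adjusted p = 0.457), 0.39 ± 0.21 for Tk1 (limma adjusted p = 0.537) and 0.31 ± 0.15 for Cenpa (limma adjusted p = 0.481). Mcm3 differed by 0.31 ± 0.16 and Cdk1 by 0.35 ± 0.20 (limma adjusted p = 0.524 and 0.566).

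In MM minus MN the median was -0.01 with 22 of 47 members above 0, and 0 passed (0.172% of all genes) or reached an unadjusted p under 0.05 (7.25% of all genes). The member with the largest difference in either direction was Cdt1, at 0.31 ± 0.19 (limma adjusted p = 0.809). Ube2c differed by 0.25 ± 0.24, Mcm5 by -0.21 ± 0.23, Kif20a by -0.19 ± 0.29, Ccne2 by -0.18 ± 0.27 and Cdc20 by -0.18 ± 0.22, with limma adjusted p-values of 0.949 to 0.981. Voom called 0 members in each of the 6 comparisons of codes, beside 2.08%, 0.536%, 0.262% and 0 of all genes for OS, ON, MM and MN minus CT, 0.396% for OS minus ON and 0.0830% for MM minus MN. At an unadjusted p under 0.05 it had, in the same order, 1 member (13.1% of all genes), 4 (10.9%), 1 (7.52%), 0 (2.87%), 6 (8.72%) and 0 (5.72%).

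Set against each other, S-phase and mitotic genes diverged in few libraries. The S-phase mean minus the mitotic mean (of the log2 deviations) was from 0.10 to 0.18 in 4 saline libraries and -0.31 in CT 4. By code it was 0.05 ± 0.20 in CT (SD, n = 5), -0.03 ± 0.19 in OS (n = 6), -0.09 ± 0.17 in ON (n = 5), 0.03 ± 0.14 in MM (n = 5) and 0.04 ± 0.12 in MN (n = 5). Without CT 4 the CT mean was 0.14 ± 0.04 (n = 4). The ranges of all 5 codes overlapped with CT 4 in place. Without it, the 4 saline libraries lay above all 5 ON libraries, which ran from -0.40 to 0.02, and this difference was not tested. OS 5 at -0.37 and ON 3 at -0.40 were tilted to mitosis as well.

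**Figure D3:**
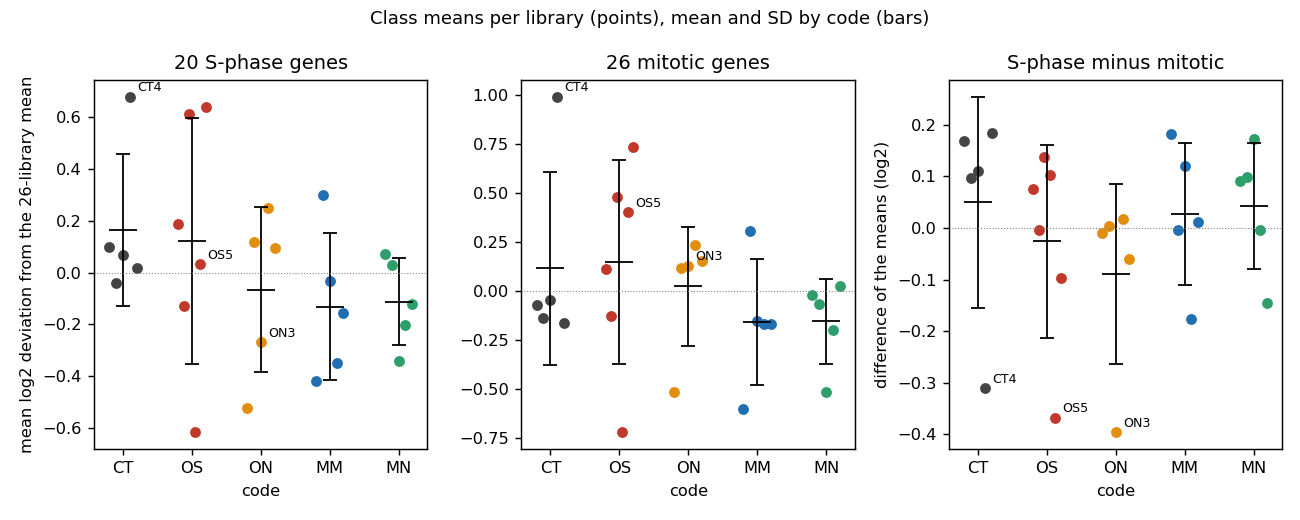
Each point is a library, placed by code, and shows the mean log2 deviation of the S-phase class (left), of the mitotic class (middle) and their difference (right), with the mean and SD of each code as bars. CT4 is the highest point in both classes, and CT4, OS5 and ON3 are the lowest in the difference.

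The tilt moved with gene length. In each library the correlation of the log2 deviation with log2 gene length was taken over all protein-coding genes tested, as a measure of how far long genes read high. Over the 26 libraries the S-phase minus mitotic value had r = -0.71 with this measure (rho -0.79), -0.70 without CT 4 and -0.70 within codes. With the members' own length relation removed from the class difference in each library, r was -0.68, and the values in CT 4, OS 5 and ON 3 were -0.23, -0.33 and -0.37. Stmn1, one of the shortest members at 1922 bases, had r = -0.70 with the length measure. The part of length, or of RNA quality, in these values was not tested.

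CT 4 was above the other 4 saline libraries for 40 of 47 members and below them for 2, Tk1 and Cdt1. The ratio of CT 4 to the mean of the other 4 was 1.86 in the median, with 1.63 for S-phase and 2.38 for mitotic genes, and exceeded 2 for 21 members. Cenpf was at 54.5 FPKM in CT 4 and 7.06 to 8.43 in the others. Cenpe, a kinesin of the kinetochore, was at 46.4 against 10.8 to 11.5, and Nusap1 at 119 against 26.9 to 32.5. In the S-phase class Rrm1 was at 69.3 against 21.5 to 23.4 and Mcm6 at 105 against 39.7 to 40.9. Against this, Cdk1 was at 18.2 FPKM in CT 4 and 16.9 to 27.4 in the others, Cdc20 at 42.4 against 38.8 to 44.0, and Tk1 at 14.9 against 21.0 to 24.7. So the cyclin partner Ccna2 (143 against 43.1 to 53.1) was high in CT 4 where its kinase was not.

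**Figure D4:**
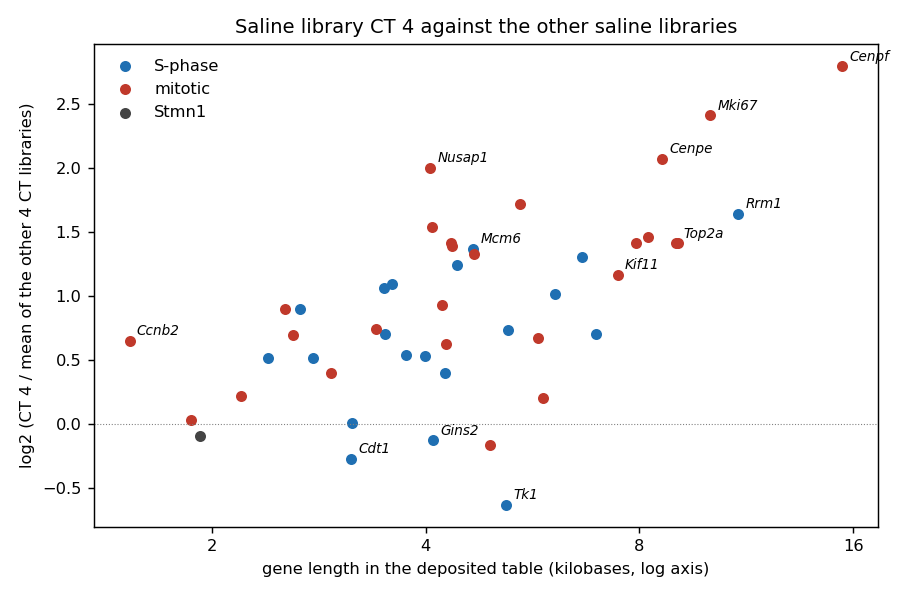
Each point is a member, with its gene length in kilobases on a log axis and the log2 ratio of CT 4 to the mean of the other 4 saline libraries, coloured by class. The ratio is largest for long genes such as Cenpf, Mki67 and Cenpe, and below 0 for Tk1, Cdt1, Cdk1, Gins2 and Stmn1.

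Longer members tended to read higher in CT 4, with exceptions such as Tk1 (5198 bases), which was below the other saline libraries there. Over the 47 members the log2 ratio had r = 0.62 with log2 length (rho 0.59), with r = 0.67 in the mitotic and 0.39 in the S-phase class, and r = 0.32 over 11969 protein-coding genes. The members run from 1531 bases (Ccnb2) to 15433 (Cenpf), and they share the same 5 libraries. Other lists differed in CT 4 too: immediate early genes had a mean deviation of -2.31, erythroid markers of 1.09, T-cell markers of -0.55 and B-cell markers of -0.39. What part RNA quality, cell content or the scaling of FPKM has in CT 4 was not tested.

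Of the markers of other cells, those of the erythroid line ran closest to the members. Their mean deviation had r = 0.92 with that of the members over 26 libraries (rho 0.86), 0.90 without CT 4 and 0.93 within codes. It was 1.09 in CT 4, 0.77 in OS 6 and 0.62 in OS 3, and -0.89 in OS 4, -0.75 in MM 1 and -0.73 in ON 1, which are the libraries at the ends of the members' own order. T-cell markers ran the other way, with r = -0.77 (-0.74 without CT 4, -0.79 within codes), and B-cell markers with r = -0.64 (-0.59 and -0.67). For germinal centre B cells r was -0.19, for plasma cells -0.56, for granulocyte precursors 0.31 and for megakaryocytes 0.36. Without CT 4 these were -0.06, -0.33, 0.43 and 0.41. These lists share libraries and scaling with the members, and cells of the different lines were not separated.

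**Figure D5:**
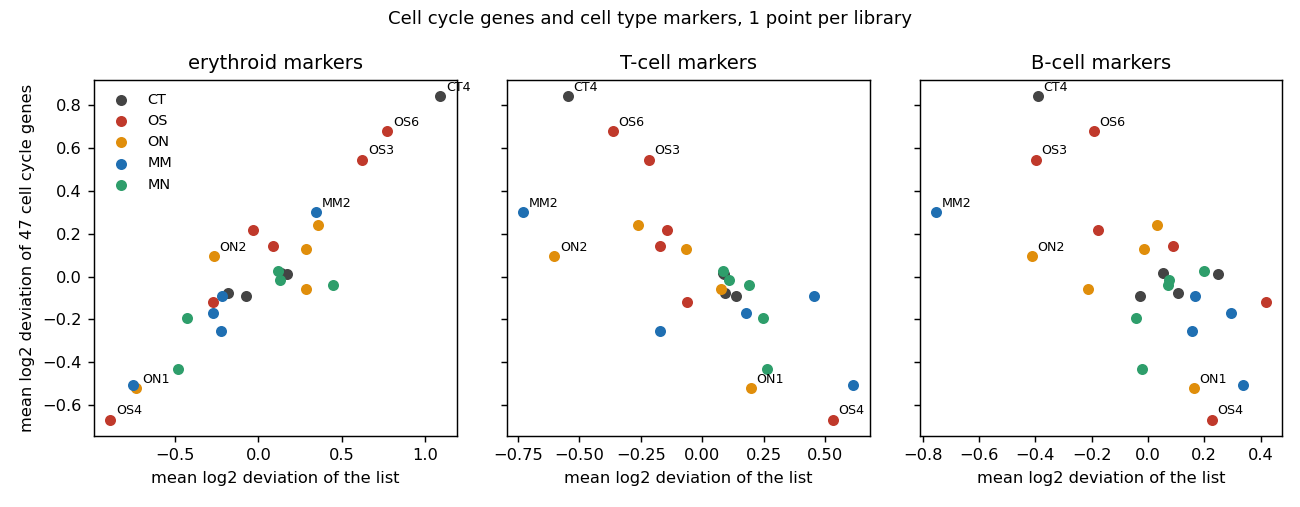
Each point is a library, coloured by code, with the mean log2 deviation of the 47 members on the vertical axis and that of erythroid (left), T-cell (middle) and B-cell markers (right) on the horizontal axis. Points rise from OS4 to CT4 with the erythroid markers and descend with the T-cell markers, and ON2 and MM2, which hold pancreatic reads, lie to the left for both lymphocyte lists.

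All 22 erythroid markers found were above 0 in some library, with a summed FPKM of 42649 to 80872 in CT, 24571 to 66564 in OS, 16269 to 45719 in ON, 24321 to 36775 in MM and 32665 to 79277 in MN. The globins make up most of it: Hbb-bs averaged 18524 FPKM and Hba-a1 15789. In OVA minus saline 0 of 22 passed, with a median of -0.13, in OVA with mimic minus OVA 0 of 22 with -0.23, and in OVA with mimic minus saline 0 of 22 with -0.31. Without CT 4 the first and last of these medians were 0.16 and -0.11. The summed FPKM of T-cell markers was 117 to 183 in CT, 122 to 239 in OS, 100 to 187 in ON, 95 to 259 in MM and 177 to 198 in MN, with 0 of 8 past the threshold in each comparison of treatments. For the 8 B-cell markers the sums ran from 545 in MM to 1380 in OS, and 0 of 8 passed.

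Further genes of the cycle ran parallel to the members over the libraries. The mean deviation of 33 other S-phase genes had r = 0.95 with that of the members, 42 other G2/M genes r = 0.99 and 12 genes of the E2F and DREAM complexes r = 0.96, while 11 genes of entry into G1 had 0.64 and 16 inhibitors and quiescence genes 0.22 (0.75 and 0.46 without CT 4). In OVA minus saline 0 of 33 other S-phase genes passed (median -0.17) and 0 of 42 other G2/M genes (median -0.04). Without CT 4 these medians were -0.02 (15 of 33 above 0) and 0.15 (34 of 42 above 0), with 0 passing. Spc24, of the kinetochore NDC80 complex, differed by -0.53 ± 0.20 (limma adjusted p = 0.176), and Nasp, a histone chaperone, by -0.34 ± 0.12 (limma adjusted p = 0.143). Without CT 4 these differences were -0.37 ± 0.20 and -0.21 ± 0.11. In OVA with mimic minus OVA the medians were -0.11 and -0.21 with 0 passing, and in OVA with mimic minus saline -0.27 and -0.23 with 0 passing, or -0.12 and -0.07 without CT 4.

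Of these 5 lists, only those of entry and of arrest held a call, 1 each, in the 9 comparisons with all libraries. Both were in OS minus CT, where 2.99% of all genes tested passed. Myc, the transcription factor that drives cells into the cycle, was higher there by 1.21 ± 0.26 (limma adjusted p = 0.0101), 1 of 11 entry genes. Cdkn1b, the inhibitor p27 of cyclin-dependent kinases, was higher by 0.34 ± 0.09 (limma adjusted p = 0.0327), 1 of 16 inhibitors. Without CT 4 the difference was 1.01 ± 0.25 for Myc (limma adjusted p = 0.0284) and 0.31 ± 0.09 for Cdkn1b (limma adjusted p = 0.0516), which then missed the threshold at nearly the same size. Immediate early genes were higher in OS as well, 7 of 12 past the threshold with a median of 2.03 (3 of 12 and 1.65 without CT 4), and their part in the Myc result was not tested. For all OVA libraries against saline neither passed, with 0.72 ± 0.23 for Myc (limma adjusted p = 0.0996) and 0.22 ± 0.08 for Cdkn1b (limma adjusted p = 0.127). Of the E2F and DREAM genes 0 of 12 passed in any comparison of treatments, and E2f4, the E2F of the repressive complex, was their highest at a mean of 71.1 FPKM.

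Genes outside these lists that ran most like the members were sought among 11808 protein-coding genes by the Pearson correlation with the mean deviation of the members over 26 libraries. The 10 highest were Scrn3, Gpsm2, Cul4a and Abcb4 (r = 0.97 each), Nqo1, Fignl1 and Wdhd1 (0.96 each), and Spag5, Ezh2 and Fancd2 (0.95 each). Without CT 4 their r was from 0.94 to 0.96. Wdhd1 and Fancd2 act at the replication fork, Spag5 and Gpsm2 at the spindle, and Ezh2 is the methyltransferase of Polycomb complex PRC2. No role is given here for Scrn3, Cul4a, Abcb4, Nqo1 and Fignl1, which all had a higher r than Wdhd1, Spag5, Ezh2 and Fancd2. The mean levels of the 10 genes ran from 4.03 FPKM (Fancd2) to 26.7 (Cul4a).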

How the data were processed

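Poly(A)-selected spleen RNA was sequenced in 26 libraries. The authors deposited FPKM per gene with a gene length. Per the submitters' processing notes, featureCounts (1.5.0-p3), HISAT2 (2.0.5) and StringTie (1.3.3b) were among the tools, with edgeR (3.24.3), DESeq2 (1.20.0) and CASAVA, all without roles. No source used here gives the build (0 of 47 members have the RefSeq GRCm38 coordinates). Reads were recovered from the FPKM steps (100% of values whole within 0.05). Genes that reached 1 FPKM in 5 or more libraries were fitted with limma 3.58.1 (R 4.3.3, trend) on log2(FPKM + 1), which understates the change of low genes, with a mean per code and Benjamini-Hochberg adjustment over all 15672 genes tested in each of 9 comparisons (threshold 0.05). For OVA the means of OS and ON were averaged, and for the mimic those of MM and MN. The fit was also run on simulated data with known changes. Their noise was drawn independently for each gene, so that run does not cover genes that vary together or an outlying library. The members and lists were chosen with earlier results of these data known. All members were named with levels. Log2 differences were named for the 3 S-phase and 3 mitotic members with the smallest p in the comparisons of treatments, OS minus ON and MM minus MN, and for further members where the text counts them. Of other lists, the 2 highest genes and up to 2 with the smallest p could be named. Alternatives were another pseudocount or filter, other scalings, library weights, voom, blocking, and leaving out libraries. Of the list symbols, Sgol1, Lin54 and Ahsp were not matched. The length-adjusted class difference was added after the data were seen.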

Additional observations from a re-analysis of the deposited data

Results flagged for a closer look

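In each code, a library was singled out where its gap to the next library, divided by the range of the code, was above the critical value of Dixon's test at 95%. Of 255 groups of values 48 gave such a library, and chance gives about 1 in 20. The members vary together, so these are not 48 separate events: 30 were CT 4, 12 were ON 1, 2 were MN 3, and CT 1, OS 4, ON 3 and MM 2 gave 1 each.

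In CT 4 the mean log2 deviation was 0.84 over the members, 0.68 over the S-phase class and 0.99 over the mitotic class, and S-phase minus mitotic was -0.31. The S-phase genes set apart there were, in FPKM, Mcm2 at 50.6, Mcm3 at 70.6, Mcm4 at 90.8, Mcm6 at 105, Mcm7 at 128, Cdc6 at 27.1, Cdc45 at 14.6, Rrm1 at 69.3, Tyms at 18.7 and Esco2 at 16.7. The mitotic genes set apart there were, in FPKM, Mki67 at 690, Top2a at 116, Ccna2 at 143, Aurka at 40.7, Aurkb at 27.0, Bub1 at 24.0, Bub1b at 28.3 and Cenpe at 46.4. They also included Cenpf at 54.5, Kif11 at 39.6, Kif23 at 24.4, Tpx2 at 59.2, Nusap1 at 119, Foxm1 at 13.9, Hmmr at 41.1 and Anln at 19.1. All of these were above the other saline libraries. CT 4 also held 6.62% mitochondrially encoded reads, the part of which in these levels was not tested.

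In ON 1 the mean deviation of the mitotic class was -0.51, below the other ON libraries. The genes set apart as low there were, in FPKM, Top2a at 37.8, Ccna2 at 34.0, Ccnb1 at 13.9, Cdk1 at 10.3, Birc5 at 19.0, Kif11 at 14.7, Kif20a at 7.23, Kif23 at 8.16, Prc1 at 8.84, Ube2c at 41.5 and Anln at 6.11. All 11 are mitotic, and no S-phase gene met this measure in ON 1, but the S-phase class was as low there, with a mean deviation of -0.52. ON 3 was also low in the S-phase class (-0.27) and not in the mitotic class (0.13), which narrows the gap that this measure uses for S-phase genes. In ON 3 S-phase minus mitotic was -0.40. The remaining values were Cdk1 at 27.4 FPKM in CT 1 (high), Aurkb at 13.1 in OS 4 (low), Mcm5 at 62.1 in MM 2 (high), and Top2a at 32.4 and Ccnb1 at 14.8 in MN 3 (low).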

How the results depend on the processing

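Of 216 recomputed counts of members called, 213 gave 0 as reported. With library weights 1 member passed in OVA minus saline (Foxm1, 0.36, limma adjusted p = 0.0476) and 1 in OS minus CT (Cdt1), and leaving out OS 5 also gave 1 in OS minus CT (Cdt1). Leaving out each library in turn gave from 0 to 1 called members in OS minus CT and 0 in every other comparison. The sign of the member median changed in 3 of 28 alternatives for OVA minus saline (from -0.17 to 0.12), 7 of 22 for OS minus CT (-0.13 to 0.18), 2 of 21 for ON minus CT (-0.26 to 0.04) and 6 of 21 for MM minus MN (-0.13 to 0.08). In the other 5 comparisons it kept its sign in all alternatives run, with -0.29 to -0.13 for OVA with mimic minus OVA and 0.02 to 0.32 for OS minus ON. Of the named differences, Plk1 in OVA minus saline turned to 0.036 with library weights (the cause was not tested), and Cenpf in OVA with mimic minus saline ran from -0.68 to 0.016 when each library was left out in turn, the last without CT 4. Codes share replicate numbers, and the labels do not say whether these pair samples. Of 50 same-numbered pairs of libraries 9 had correlated deviations over 0.1 (median -0.04, highest 0.36). This gave no sign of pairing over the pairs as a set, but it cannot exclude a batch shared by number. A replicate block left 0 members called in all 9 comparisons and gave medians of -0.17 in OVA minus saline, -0.13 in OVA with mimic minus OVA and 0.04 in OS minus ON. In the last 150 bases before the start, the share with a CHR was 47.6% of mitotic, 18.8% of S-phase and 16.8% of all genes, and that with an E2F site 18.8% of S-phase and 1.44% of all genes. With TTTGAA alone the CHR share was 12.5% of S-phase, 76.2% of mitotic and 20.2% of all genes. The S-phase minus mitotic means by code moved by less than 1 SD of their code in all 46 alternatives. Most of these left out 1 library, which cannot move a mean by that much, so they could not fail. The change of the CT mean without CT 4, given above, also counted as less than 1 SD. CT 4 itself widens that SD, so this count does not show that the CT mean is stable. With 4 to 11 libraries a group, the 95% intervals on single members were wide, as for Cenpf in OVA with mimic minus saline (-1.20 to 0.17).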
